A study of Mus musculus with 4 samples.

Results

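The odorant receptor genes *Olfr763* to *Olfr827* were compared between the nasal mucosa of young adult and aged mice. Members were the genes whose symbol is Olfr with a number in this range, found by matching the accession of each probe to RefSeq gene symbols (assembly GRCm38.p6). RefSeq lists 65 such genes, 56 of them protein coding and 9 pseudogenes. On the array, 52 members were measured, all protein coding, among 45604 genes tested in all. Of these, 22905 carried a RefSeq symbol and 22699 were tested under their accession alone, so shares over all genes include both. *Olfr765*, *Olfr777*, *Olfr789*, *Olfr814* and the 9 pseudogenes had no matched probe here.

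Each of 4 one-colour arrays carried Cy3-labelled RNA from a pool of 5 mice, with 2 arrays for young adult mice (8 weeks) and 2 for aged mice (16 months). The mice were C57BL/6J by the labels and male C57BL/6 by the methods of the study, and no group was treated. A stray label about silica and lung was not used. The methods count fewer mice per age for gene analyses than 2 separate pools of 5 need. Nothing states if the same mice entered both pools of an age, so P-values measure only the spread between these samples. The tissue label was met by its markers: all 10 markers of mature olfactory neurons, *Omp* among them, were above background on every array. *Xist*, the RNA that coats the silenced X of female cells, had levels of 645 and 612 in young adult mice and 644 and 637 in aged mice, above background each time. Of 8 Y chromosome genes, only *Sry* was above background, on 1 array, and no Y level passed 63.0. These levels, looked at after the data were seen, are not those of male tissue, although the methods give male mice. The cause was not tested.

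Array 1 of each age was on a common slide, and the other 2 arrays were on slides of their own. An expression level is the normalized spot intensity, averaged over the probes of a gene, and a spot is called above background where the scanner software flagged it as well above its local background. By that flag 68.1% and 76.8% of spots were above background on young adult arrays 1 and 2, and 63.1% and 72.7% on aged arrays 1 and 2. Of the 52 members, young adult arrays 1 and 2 detected 29 and 41 above background and aged arrays 1 and 2 detected 26 and 41. Array 1 of each age thus detected fewer of them. The median local background was 67 and 32 on young adult arrays 1 and 2 and 63 and 39 on aged arrays 1 and 2. Of the other Olfr genes, 49.5% and 72.3% were above background in young adult and 42.5% and 67.5% in aged mice. The median member level was not lower on array 1, at 74.2 and 68.6 in young adult and 89.6 and 84.3 in aged mice.

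Olfactory receptors are G protein-coupled receptors in the cilia of olfactory receptor neurons (ORNs). A mature ORN expresses a single receptor gene, from a single allele, and signals through the G protein subunit Golf, adenylate cyclase 3 and a cyclic nucleotide-gated channel. Receptor genes lie in clusters on many chromosomes, and neighbouring genes are often close relatives. In RNA of whole mucosa, fewer neurons that chose a receptor and less of its RNA per neuron cannot be told apart.

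The 52 members formed a single run on chromosome 10 in the order of their numbers. RefSeq synonyms placed all of them in 13 families of the MOR nomenclature, which groups mouse receptors by sequence. RefSeq start windows were matched for 42 members, and 41 of these had the start codon at the model start. Over the first 50 bases of coding sequence the median identity was 78.0% in 100 pairs of the same family and 48.0% in 720 pairs of different families. Bases were compared position by position without gaps, so an inserted or lost base lowers the identity after it. Pairs of the same family ran down to 26.0%. All 8 pairs with at least 90% identity were of the same family, with *Olfr825* and *Olfr826* closest at 98.0%. The files hold no probe sequences, so cross-detection of related receptors could not be assessed.

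The starts of 3 pairs are shown. Each called member with a window stands beside its closest match over these bases, and *Olfr816* beside *Olfr822*, chosen after their values were seen. The sequences are from RefSeq (GRCm38.p6), each in the coding exon and beginning at the start codon, 5′ to 3′, and capitals mark the bases that differ within a pair. *Olfr767* (chr10:129079912-129079961, minus strand) and *Olfr813* (chr10:129856520-129856569, plus strand) differed at 12 bases, *Olfr805* (chr10:129723493-129723542, minus strand) and *Olfr806* (chr10:129738866-129738915, minus strand) at 3, and *Olfr816* (chr10:129912227-129912276, minus strand) and *Olfr822* (chr10:130074412-130074461, plus strand) at 4.
Olfr767: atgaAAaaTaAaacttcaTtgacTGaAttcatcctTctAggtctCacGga
Olfr813: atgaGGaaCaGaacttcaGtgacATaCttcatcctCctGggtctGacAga
Olfr805: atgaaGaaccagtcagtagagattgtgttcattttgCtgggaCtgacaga
Olfr806: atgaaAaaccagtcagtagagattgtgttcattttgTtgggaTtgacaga
Olfr816: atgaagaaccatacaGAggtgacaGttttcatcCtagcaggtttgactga
Olfr822: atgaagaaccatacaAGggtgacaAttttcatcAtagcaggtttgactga

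*Olfr767*, *Olfr786* and *Olfr805* rose in aged mice and *Olfr813* fell, with fitted folds of 1.78, 1.91, 1.74 and 1.99. These were the only members to pass the study's criteria of statistical significance in limma's test. The criteria are P below 0.05 and an FDR below 0.25 over all genes. The 3 higher members are 5.77% of the 52, where 1.65% of all genes tested were called higher, and the 1 lower member is 1.92%, where 2.33% were called lower.

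*Olfr786*, of family MOR111, had expression levels of 261 and 308 on young adult arrays 1 and 2 and of 574 and 509 on aged arrays 1 and 2. Both aged arrays lay above both young adult arrays, and the means were 285 ± 33.0 and 542 ± 46.0 (SD, n = 2 pools). The log2 difference was 0.93 with a standard error of 0.13 (FDR = 0.210 by limma), and it was 1.14 on the shared slide and 0.73 between the other 2 arrays. *Olfr786* had no sequence in the start windows.

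*Olfr767*, the sole member of family MOR115, had levels of 74.4 and 93.2 in young adult mice and of 141 and 156 in aged mice. The 2 ages did not overlap, and the log2 difference was 0.83 with a standard error of 0.16 (FDR = 0.248 by limma). It was the only member with 2 probes. The brighter probe gave 106 and 153 against 215 and 204, and the dimmer one 52.0 and 56.9 against 91.9 and 119. Both probes were higher in aged mice, by log2 differences of 0.72 and 0.94. Within the shared slide the gene's difference was 0.92, and between the other 2 arrays 0.74. The call lay at the edge of the criterion: it was lost with the brighter probe alone (0.72, FDR = 0.337) and with the scanner software's processed signal scaled to the 75th percentile (1.11, FDR = 0.301).

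*Olfr805*, of family MOR110, was dimmer. Its levels were 46.8 and 46.9 in young adult mice and 77.9 and 85.3 in aged mice, a log2 difference of 0.80 with a standard error of 0.09 (FDR = 0.188 by limma). The young adult arrays were nearly equal and both lay below the aged arrays, but the spot was above background only on array 2 of each age. The difference was 0.86 between these 2 arrays, and the 0.74 within the shared slide is between 2 spots not above background. Its size ran from 0.44 with a normexp offset of 50 to 1.42 with the processed signal and quantile normalization. With the processed signal scaled to the 75th percentile it was 1.37 and was not called (FDR = 0.338).

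*Olfr806*, the relative of *Olfr805* with 94.0% identity at the start of the coding sequence, had levels of 129 and 174 in young adult mice and 174 and 185 in aged mice. Young adult array 2 was level with aged array 1, the ages overlapped, and the log2 difference was 0.26 with a standard error of 0.18 (FDR = 0.621 by limma). *Olfr784*, which also forms a pair of at least 90% identity with *Olfr805*, was high on aged array 1 alone and is described with the single-array values.

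*Olfr813*, of family MOR108, had levels of 241 and 229 in young adult mice and of 109 and 129 in aged mice. Each aged level was lower than each young adult level, with means of 235 ± 8.54 and 119 ± 14.6 (SD, n = 2 pools). The log2 difference was -0.99 with a standard error of 0.12 (FDR = 0.201 by limma), -1.15 within the shared slide and -0.83 between the other 2 arrays. Over the start of the coding sequence, compared without gaps, its closest match among the 41 starts was *Olfr767*, at 76.0% identity. The 2 genes are of different families and had differences of opposite sign. *Olfr809*, also of MOR108, was not among these starts, so a closer relative may have been missed.

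For its differentially expressed genes the study also required a mean level of at least 100 and a fold change of at least 1.5. With these limits *Olfr767* and *Olfr786* remained higher and *Olfr813* lower, 3.85% and 1.92% of the members. Among all genes tested the shares were 0.814% and 1.15%. *Olfr805* did not reach the level limit, with a mean of 64.2. No gene on the array, the 4 members included, kept an FDR below 0.25 in limma when any of the 4 arrays was left out, although the log2 differences of these 4 kept their signs. The array number as a block sets the arrays of the shared slide apart from the other 2. With it, all 4 members had FDR = 0.433 by limma, the smallest FDR of any gene. No gene on the array was called under this block, so the loss is not particular to these 4.

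Further members above background on all 4 arrays were higher in aged mice without passing the FDR criterion, 2 of them by as much as the called genes. *Olfr803*, of family MOR111, was at 86.0 and 94.8 in young adult mice and at 141 and 184 in aged mice, a log2 difference of 0.84 (standard error 0.17, FDR = 0.264 by limma). The ages did not overlap, and the spread between the aged arrays was wider than between the young adult arrays. *Olfr788*, also of MOR111, was at 93.9 and 155 in young adult mice and at 206 and 238 in aged mice (0.88, standard error 0.30, FDR = 0.386). Young adult array 1 was the low one, and the wide gap between the young adult arrays gave this gene a larger standard error than *Olfr786*.

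*Olfr796*, of family MOR269, had levels of 69.7 and 76.4 in young adult mice and 97.0 and 112 in aged mice, a log2 difference of 0.51 (FDR = 0.287 by limma). *Olfr801*, of family MOR110, had levels of 434 and 452 against 573 and 526, a difference of 0.31 (FDR = 0.338). In both genes each aged array lay above each young adult array. *Olfr803* passed both criteria under 10 of 16 other tested settings and *Olfr796* under 8.

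Other members were lower in aged mice without passing the FDR criterion. *Olfr816*, of family MOR113, was at 604 and 570.4 in young adult mice and at 442 on both arrays of aged mice, a log2 difference of -0.41 with a standard error of 0.08 (FDR = 0.253 by limma). *Olfr822*, its relative with 92.0% identity at the start of the coding sequence, was at 187 and 194 against 148 and 141 (-0.40, standard error 0.08, FDR = 0.262). The 2 genes had nearly the same log2 difference and standard error, the ages did not overlap in either, and both just missed the FDR criterion. *Olfr816* passed both criteria under 8 of 16 other tested settings and *Olfr822* under 6.

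*Olfr810*, also of MOR113, had levels of 281 and 289 in young adult mice and 195 and 224 in aged mice, a log2 difference of -0.45 (FDR = 0.295 by limma). *Olfr810* passed both criteria under 6 of the 16 other settings. *Olfr799*, of MOR114, had levels of 161 and 167 against 113 and 136 (-0.40, FDR = 0.369). *Olfr819*, the sole member of family MOR265, had levels of 271 and 294 against 244 and 213 (-0.31, FDR = 0.411). In all 3 genes the ages did not overlap.

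**Figure D1:**
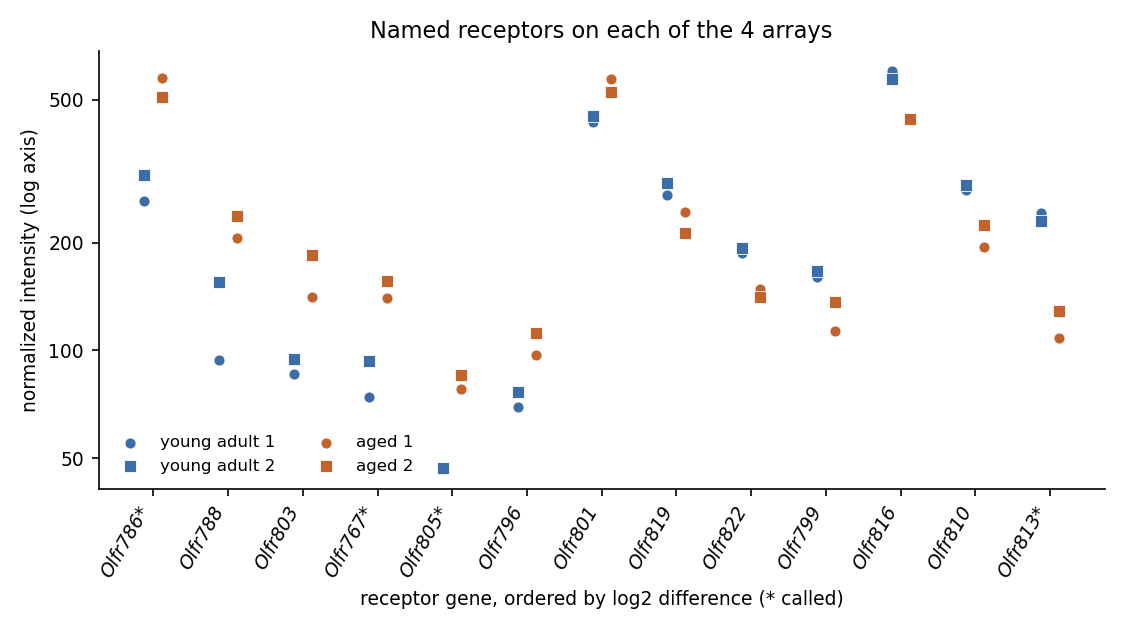
Normalized intensity (log axis) of the 13 named receptors on each array, with circles for array 1 and squares for array 2 of each age, in blue for young adult and orange for aged mice. The 4 called genes carry an asterisk. In all 13 genes the 2 ages do not overlap, and where a circle is hidden the 2 arrays of an age had nearly equal levels.

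Over all 52 members the log2 differences ran from -0.99 to 1.15, with 34 members higher and 18 lower in aged mice and a median of 0.17. The median over all genes tested was 0.0093, with 51.5% of genes higher. The median difference of the members was smaller under some settings. It was 0.092 with aged array 2 left out, 0.056 within the shared slide and 0.043 with dim probes left out. The quartiles of the members' differences were -0.12 and 0.37. By P below 0.05 alone, 11 members were higher and 5 lower, 21.2% and 9.62% of the members, where 6.05% and 7.08% of all genes were. The aged levels were both above the young adult levels in 20 members and both below in 11, 38.5% and 21.2%, where 24.2% and 21.8% of all genes were separated in these directions. In the other 21 members the ages overlapped.

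**Figure D2:**
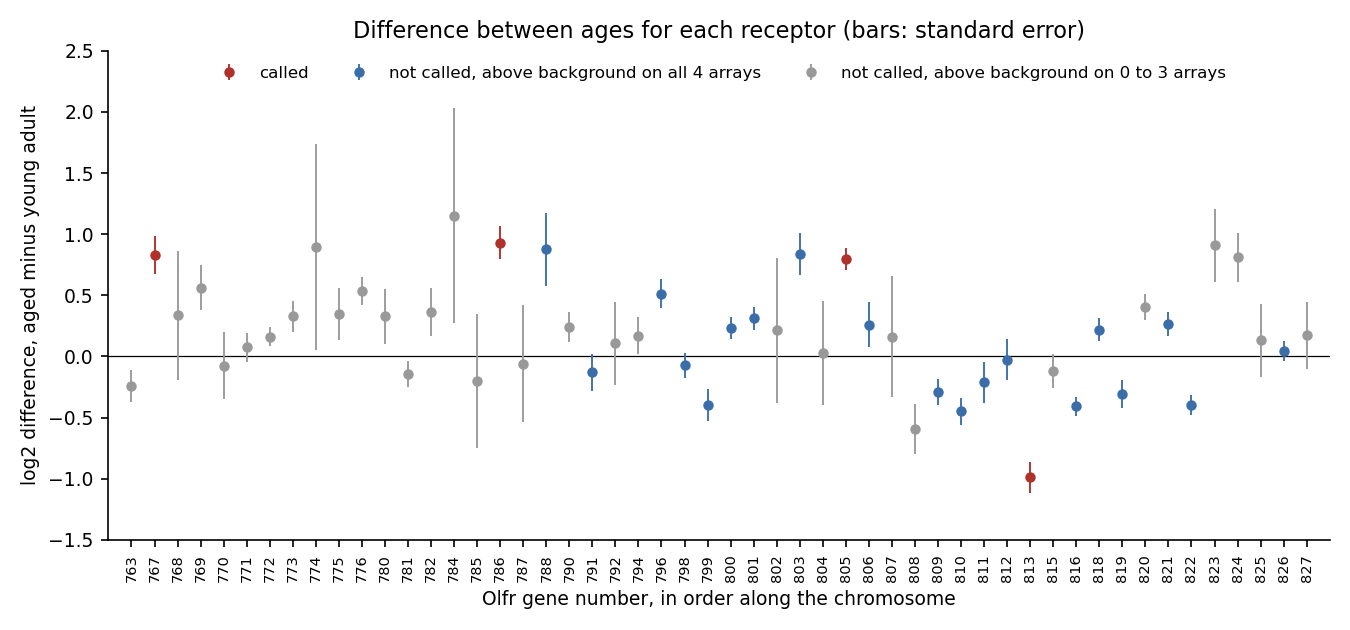
Log2 difference between aged and young adult mice for each of the 52 members in their order along the chromosome, with the standard error of limma's fit as bars. The 4 called genes are red, other members above background on all 4 arrays blue and the rest grey, and the longest bars belong to grey members such as *Olfr784* and *Olfr774*.

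The share of members higher in aged mice was larger among the dim ones. The 26 members with a mean level above the members' median of 78.9 divided into 13 higher and 13 lower, with a median log2 difference of 0.0088. Of the 26 below it, 21 were higher and 5 lower, with a median of 0.23. Under the 17 other settings the median of the brighter members was above 0 in 15 and below 0 in 2, from -0.0026 with the processed signal and quantile normalization to 0.076. That of the dimmer members was above 0 under all 17. Within the shared slide the 2 were close, at 0.030 with 14 of 26 higher among the brighter and 0.068 with 15 of 26 higher among the dimmer. No dimmer member was above background on all 4 arrays, and the division by level was chosen after the values were seen.

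Only 22 members were above background on all 4 arrays, and 8 were on no array: *Olfr768*, *Olfr771*, *Olfr775*, *Olfr776*, *Olfr790*, *Olfr792*, *Olfr802* and *Olfr827*. The other 22 were above background on 1 to 3 arrays. *Olfr774*, *Olfr804* and *Olfr820* were above background on a single aged array only, and *Olfr781* on a single young adult array only. In *Olfr804* the levels were 41.0 and 30.5 in young adult mice and 25.5 and 51.0 in aged mice, so that the ages overlapped and the detection on aged array 2 alone gives no direction. *Olfr820* was at 41.0 and 38.1 against 49.3 and 55.4, with no overlap (log2 difference 0.40, FDR = 0.312 by limma), but only aged array 2 was above background.

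The 1028 other Olfr genes on the array gave the closest comparison. Of these, 592 were higher and 436 lower, with a median log2 difference of 0.10, and 115 were called higher (11.2%) and 39 lower (3.79%). Their median was 0.021 with aged array 2 left out and was 0.24 with the processed signal scaled to the 75th percentile. It was above that of the members under 3 of 17 other settings, among them the shared slide alone (0.070 against 0.056) and dim probes left out (0.090 against 0.043). The members' share called in either direction was 7.69% and that of the other Olfr genes 15.0%, beside 3.98% of all genes and 5.31% of the genes with a RefSeq symbol, as all members have. The gap between the 2 receptor groups was not kept under other normalizations: with 75th percentile scaling 13.5% of members and 13.4% of other Olfr genes were called, and with cyclic loess 17.3% and 17.4%. By P alone the shares were 30.8% and 29.8%. The difference between the groups was not tested.

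**Figure D3:**
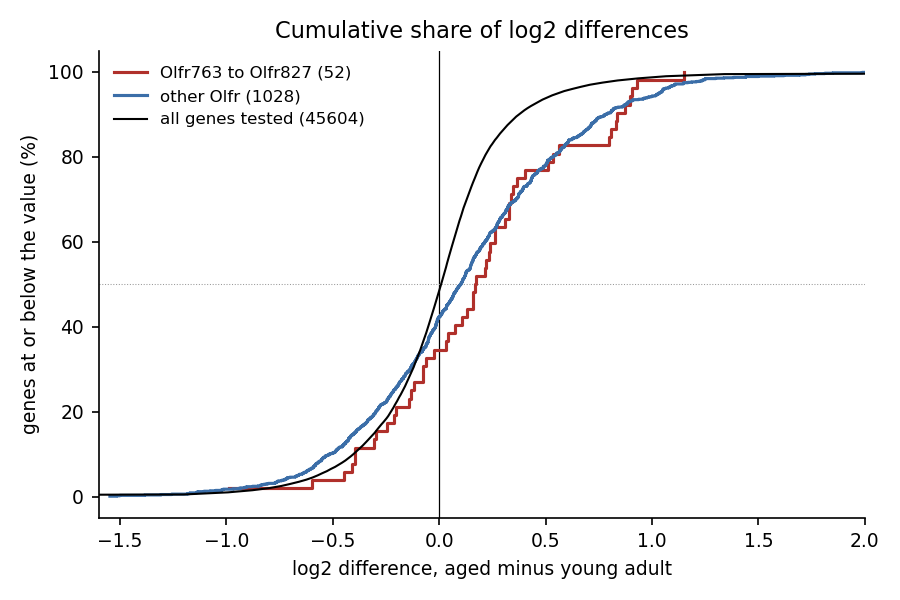
Percentage of genes with a log2 difference (aged minus young adult) at or below the value on the horizontal axis, for the 52 members, the 1028 other Olfr genes and all 45604 genes tested; the axis leaves out the few values beyond its ends. The curves of both receptor groups are flatter than that of all genes, and they cross the 50% line at 0.17 for the members, 0.10 for other Olfr genes and 0.0093 for all genes, an order of the 2 receptor groups that turned under some settings.

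Among other Olfr genes with a mean level above the members' median, 272 of 446 were higher, with a median of 0.15 and 25.3% called, where the brighter members had 13 of 26 higher and 11.5% called. The called shares lay closer under most other settings, at 30.8% of brighter members and 33.9% of these other genes with a normexp offset of 16 and 46.2% and 45.3% with an intensity trend. Below that level 320 of 582 other Olfr genes were higher, with a median of 0.064, so that among other Olfr genes the median was larger for the brighter ones, the reverse of the members. Blocks of neighbouring numbers also differed in their values. *Olfr462* to *Olfr541* (61 genes) had 9 genes called higher and 0 lower in limma's test, with 13 and 1 by P below 0.05 alone, and a median of 0.066, which ran from 0.031 to 0.21 with an array left out. *Olfr828* to *Olfr986* (110 genes) had 4 called in each direction and a median of 0.0034, whose sign turned in 7 of 17 other settings. *Olfr987* to *Olfr1318* (236 genes) had 33 higher and 4 lower and a median of 0.22, or 0.10 without aged array 2. Whether the members differ from any of these blocks was not tested.

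The MOR families, a division made after the files were seen, were read one by one, and differences between them were not tested. All 4 members of MOR113 (*Olfr810*, *Olfr815*, *Olfr816* and *Olfr822*) were lower in aged mice, with a median log2 difference of -0.40, and their median stayed between -0.43 and -0.34 under the 17 other settings. None of the 4 was called by limma, with 3 at P below 0.05, where 7.08% of all genes were lower by P. Under 5 other settings, such as a normexp offset of 16 or 50, 3 of the 4 were called lower, while with 75th percentile scaling 0 were. The share of all genes called moved in the same way, from 3.98% to 6.55% and 10.0% with these offsets and to 3.09% with 75th percentile scaling. *Olfr815* was at 79.8 and 90.6 in young adult mice and at 72.0 and 85.3 in aged mice, so that its ages overlapped and its difference was only -0.12. With aged array 1 left out, 1 of the 4 was higher. MOR108, the family of *Olfr813*, had 3 of 4 members lower and a median of -0.18. With an array left out its median ran from -0.32 to -0.14 and 2 to 4 of its members were lower, and within the shared slide it was -0.43 with all 4 lower.

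MOR111, the family of *Olfr786*, *Olfr788* and *Olfr803*, had 7 of 9 members higher and a median of 0.54, which is the value of *Olfr776*, a gene at background on every array. Its median was above 0 under all 17 other settings, from 0.17 with a normexp offset of 50 to 0.86 with dim probes left out, which kept 4 of the 9. Of the 7 higher members, *Olfr775*, *Olfr776* and *Olfr802* were not above background on any array, and only the 3 named first were on all 4. MOR110, the family of *Olfr805*, also had 7 of 9 higher, with a median of 0.26 (0.16 without young adult array 2), and MOR114, the largest, 8 of 12 with a median of 0.17. The MOR114 median turned to -0.076 with dim probes left out, which kept 5 of its members, 2 of them higher. The order of these families by median also changed with the setting: with a normexp offset of 50, MOR110 (0.196) lay above MOR111 (0.170).

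All 5 members of MOR210 (*Olfr823* to *Olfr827*) had values above 0, with a median of 0.17 that is the value of *Olfr827*, not above background on any array. Only *Olfr826* was above background on all 4 arrays, and within the shared slide 2 of 5 were higher, with a median of -0.019. The family's median was 0.0017 without young adult array 2, with 3 of 5 higher, and 0.50 without young adult array 1. *Olfr823* was at 28.8 and 39.1 in young adult mice and at 77.9 and 51.0 in aged mice (log2 difference 0.91, standard error 0.30, FDR = 0.375 by limma). *Olfr824* was at 58.5 and 44.1 against 97.0 and 81.8 (0.81, standard error 0.20, FDR = 0.296). The ages did not overlap in either gene, although *Olfr823* was above background only on array 2 of each age. *Olfr825* and *Olfr826*, nearly identical at the start of the coding sequence, had differences of 0.13 and 0.043, and the ages overlapped in both. These genes were described after their values were seen.

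**Figure D4:**
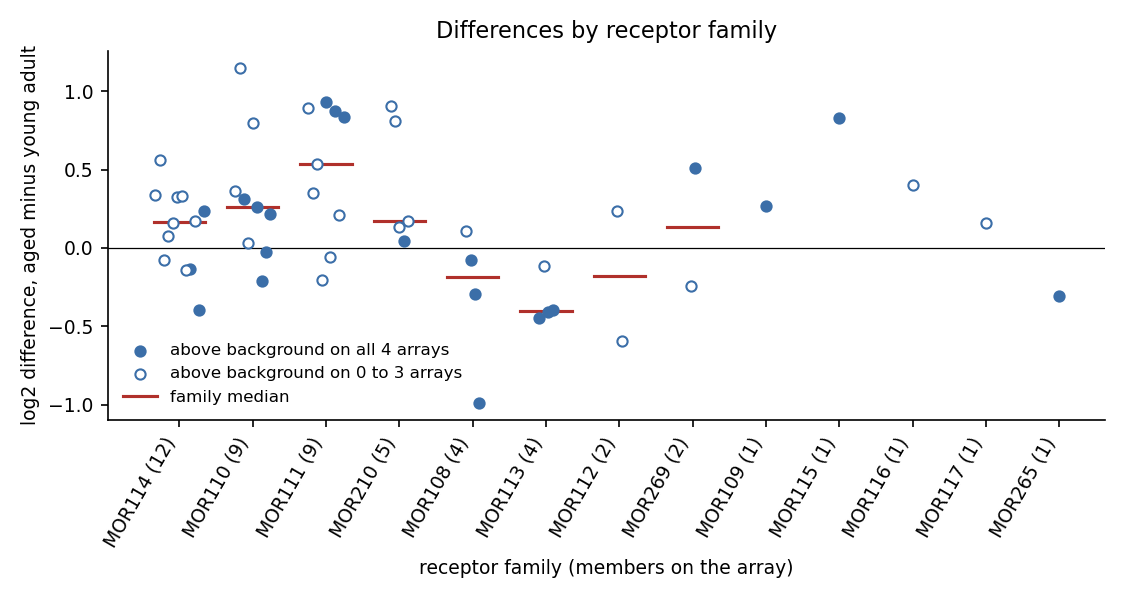
Log2 difference (aged minus young adult) of each member by MOR family, with the number of members in brackets, filled points for members above background on all 4 arrays and open points for the others. Red lines are medians of families with more than 1 member; MOR113 lies wholly below 0 and MOR210 wholly above it.

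Along the chromosome no stretch held the calls. In 4 consecutive groups of 13 members (*Olfr763* to *Olfr781*, *Olfr782* to *Olfr799*, *Olfr800* to *Olfr812* and *Olfr813* to *Olfr827*) the medians were 0.33, 0.17, 0.16 and 0.13. The first 3 groups had 1 member called higher each and the last had 1 called lower. The first group was also the dimmest, with 1 of 13 members above background on all 4 arrays, against 6, 8 and 7 in the others. *Olfr808* to *Olfr816* were all lower in aged mice, a run of 8 measured members from 4 families that was picked out after the values were seen and of which *Olfr813* alone was called.

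The 2 pairs of arrays gave similar values for members above background on all 4 arrays but not for the others. Across the 52 members the difference within the shared slide and that between the other 2 arrays correlated at r = 0.27 and rho = 0.30, a description across genes that are not independent replicates. In 24 members both were higher and in 12 both lower. Across the 22 members above background on all 4 arrays the values were r = 0.91 and rho = 0.89, with 18 of the same sign, and across the other 30 they were r = -0.18 and rho = -0.15, also with 18 of the same sign. The median over the 52 members was 0.056 within the shared slide, 0.15 for aged array 1 against young adult array 2, 0.17 for aged array 2 against young adult array 1 and 0.21 for aged array 2 against young adult array 2.

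Among the widest differences, those of *Olfr784* and *Olfr774* came from a single array. *Olfr784*, with the largest log2 difference of all members (1.15, standard error 0.88, FDR = 0.640 by limma), had levels of 64.5 and 51.0 in young adult mice and of 279 and 58.4 in aged mice. Only aged array 1 was high, and aged array 2 lay within the young adult range. *Olfr774* had the same shape, with 36.1 and 25.9 against 119 and 27.1 (0.90, standard error 0.85). *Olfr785* was high on young adult array 1 instead, at 169, and at 64.0, 85.6 and 95.4 on the other 3. The order of the ages in these 3 genes, chosen after their values were seen, depends on which arrays are compared.

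**Figure D5:**
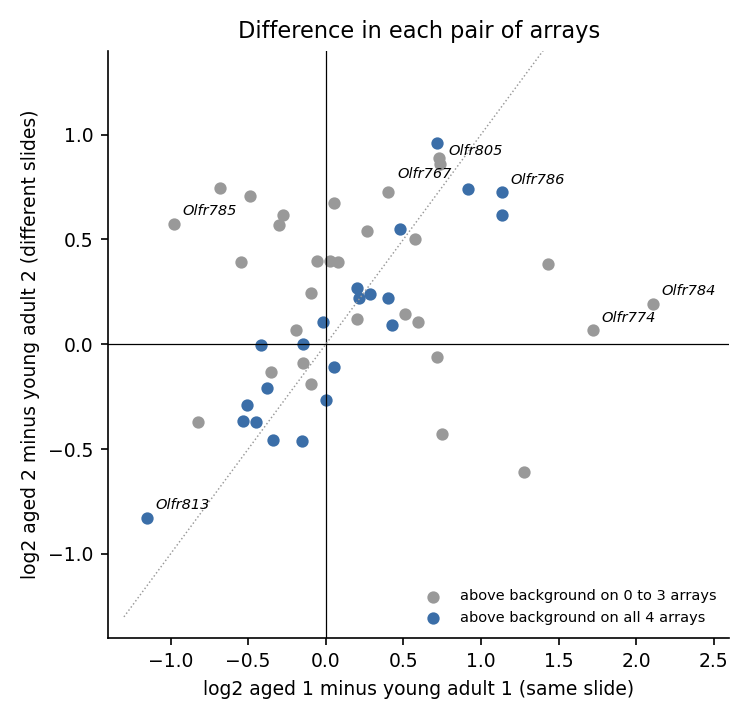
Log2 difference of each member within the shared slide (aged 1 minus young adult 1, horizontal) and between the other 2 arrays (aged 2 minus young adult 2, vertical), in blue for the 22 members above background on all 4 arrays and grey for the others; the dotted line marks equal values. Blue points lie along the line (r = 0.91), while *Olfr784*, *Olfr774* and *Olfr785* lie far from it.

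The partners of the receptors in ORNs were read beside them. In a list of 20 genes of receptor transport and odour signalling, 18 were higher in aged mice, 2 of them called higher and 0 called lower by limma, with a median log2 difference of 0.16. By P below 0.05, 6 were higher and 0 lower. Of all genes tested, 1.65% were called higher and 2.33% lower, and 6.05% and 7.08% were higher and lower by P. Among genes above background on all 4 arrays, 2.11% were called higher and 3.07% lower. *Stoml3*, a membrane protein of ORN cilia, rose from 30691 and 29551 to 41364 and 39866 (0.43, FDR = 0.244), and *Pde4a*, a cAMP phosphodiesterase, from 11009 and 11015 to 15695 and 14482 (0.45, FDR = 0.249). Both calls were lost with 75th percentile scaling (FDR = 0.254 and 0.252) and with the processed signal scaled in that way (0.279 and 0.257). They were also lost with the array number as a block (FDR = 0.433 for both by limma), under which no gene on the array was called.

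*Adcy3*, the adenylate cyclase of the pathway, had levels of 5022 and 5068 in young adult mice and 6393 and 6222 in aged mice, a log2 difference of 0.32 (FDR = 0.289 by limma). The ages did not overlap. *Gnal*, the Golf subunit, *Cnga2*, a channel subunit, and *Rtp1*, which carries receptors to the cell surface, had differences of 0.054, 0.083 and 0.14 (FDR = 0.810, 0.726 and 0.530). In a list of 13 factors of receptor choice, among them *Lhx2*, *Ldb1* and *Ebf1*, limma called 0 in either direction, with 2 higher and 0 lower by P below 0.05 (*Ebf3* and *Adcy3*), and the median was 0.070. *Adcy3* and *Rtp1* are in both this list and the signalling list.

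Markers of the cells that carry the receptors were read by stage, and a difference between stages was not tested. Beside the counts of called markers here and below, 1.65% of all genes were called higher and 2.33% lower. By P below 0.05 the shares of all genes were 6.05% and 7.08%. The 10 markers of mature ORNs all belong to the signalling list above, so the 2 lists are not separate readings. All 10 markers of mature ORNs were above background on every array and higher in aged mice, with a median log2 difference of 0.20 and 1 called (*Stoml3*). Their summed level was 578976 and 570188 in young adult mice and 632217 and 640129 in aged mice. *Omp*, the marker with the highest signal, was at 300826 and 286061 against 317836 and 332591 (0.15, FDR = 0.549 by limma).

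All 7 markers of immature ORNs were lower, with a median of -0.31 and 1 called (*Dpysl3*, -0.40, FDR = 0.247 by limma), and their summed level was 54645 and 53138 against 44644 and 43621. *Stmn2* had the highest signal, and *Gap43*, the growth-associated protein of immature ORNs, had a log2 difference of -0.41 (FDR = 0.251 by limma). With 75th percentile scaling limma called 0 of these 7 and 1 was higher. Of 7 markers of basal and progenitor cells, 5 were lower and 2 called lower (*Krt5*, -0.49, and *Kit*, -0.60), with a median of -0.30 and sums of 30427 and 31034 against 24790 and 24200. *Krt5* had the highest signal of these, and the median was -0.51 without young adult array 1. With the processed signal scaled to the 75th percentile, 0 of these 7 basal markers and 0 of the 7 immature markers were called. With the array number as a block, limma also called 0 in both lists, as it called no gene on the array.

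Other cells of the mucosa were read in the same way, beside the same shares of all genes. Of 7 markers of sustentacular cells limma called 0, with 0 at P below 0.05, a median of 0.033 and sums of 818016 and 829041 against 862691 and 862203, led by *Cyp2a5*. That median ran from 0.041 to 0.072 with an array left out and was 0.10 with the processed signal scaled to the 75th percentile. All 6 markers of ciliated respiratory cells were lower, with 0 called, 1 at P below 0.05, a median of -0.15 and sums of 60646 and 61072 against 54395 and 54817, led by *Dynlrb2*. All 6 markers of olfactory ensheathing cells were lower, with a median of -0.39, and 2 were called (*Fabp7*, -0.62, and *Npy*, -0.58). Their sums were 35348 and 36092 against 24933 and 26434, led by *Fabp7*. Both calls were lost with the array number as a block, under which no gene on the array was called.

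Of 5 markers of vomeronasal neurons, 4 were on the array, with *Trpc2* not measured and *Vmn1r51* not above background on any array. Limma called 0 of them, and the 2 at P below 0.05 went in opposite directions, *Gnai2* lower (-0.34) and *Vmn2r1* higher (0.41). *Vmn2r1* had mean levels of only 29.9 and 39.6 and was above background on 1 array. The median of the 4 markers, -0.083, changed sign in 5 of 17 other settings. Sums were 6851 and 6533 against 5826 and 5684, led by *Gnai2*, which alone had mean levels of 5027 in young adult and 3981 in aged mice. The part of the cell types in the members' differences was not tested.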

How the data were processed

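The authors scanned each one-colour array with Agilent Feature Extraction 11.0.1.1 and deposited the median intensity of each spot and of its local background, without normalization between arrays. Background correction used normexp with an offset of 0 (limma 3.58.1, R 4.3.3). Control and outlier spots were left out, spots of a probe averaged, arrays quantile normalized and probes of a gene averaged on the log2 scale. Of 56605 probes, 32994 (58.3%) matched a RefSeq accession; the others were tested under their own accession.

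Ages were compared with limma (lmFit, eBayes, no covariates) over 45604 genes, after the methods of the study. With 2 arrays against 2, an exact permutation test cannot give a P below 0.333. The fit was tested on simulated data. Members and lists were chosen with earlier results of these data known. Genes named were called members, the 6 largest rises and 6 largest falls among members above background on all 4 arrays, and *Omp*, *Gnal*, *Adcy3*, *Cnga2*, *Rtp1*, *Gap43* and called genes of the signalling lists; others were named after their values were seen. No protein table was used.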

Additional observations from a re-analysis of the deposited data

How the results depend on the processing

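Of the 52 members, 3 were called higher and 1 lower in aged mice. Other background methods gave 6 higher and 4 lower (offset 16), 8 and 4 (offset 50) and 6 and 5 (no correction). The processed signal gave 5 and 2 (75th percentile) and 8 and 6 (quantile). Scaling to the 75th percentile gave 6 and 1, and cyclic loess 7 and 2. An intensity trend in eBayes gave 9 and 6, and the brightest probe per gene 3 and 3. Leaving out dim probes, which kept 31 members, gave 9 and 8. P below 0.05 alone gave 11 and 5, where 6.05% and 7.08% of all genes were higher and lower. An FDR below 0.05 gave 0 and 0 in limma, and no gene on the array reached it, the smallest FDR being 0.0945. The share of all genes called moved too, from 3.98% to 6.55% (offset 16), 10.0% (offset 50), 8.83% (no correction), 9.59% (processed, quantile), 15.6% (trend), 24.2% (dim probes left out), 5.11% (cyclic loess), 5.30% (brightest probe), 3.30% (processed, 75th percentile) and 3.09% (75th percentile scaling). The causes were not tested.

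With any array left out, the counts ranged from 0 to 0 in limma, with 8 to 12 members at P below 0.05; the lone array of an age was assumed to vary like the others. With the replicate number as a block, 0 and 0 members and no other gene on the array were called, with 13 members at P below 0.05. Arrays numbered 1 share a slide and those numbered 2 do not, and nothing in the labels pairs them by mice (r = -0.078 between deviations of the arrays numbered 1). Slide as a random block could not be fitted, and as a fixed block it leaves no residual degrees of freedom.

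The median log2 difference of 0.17 kept its sign throughout. It was 0.087 with offset 50, 0.043 with dim probes left out, 0.056 within the shared slide and 0.092 to 0.21 with an array left out, the lowest without aged array 2. Among the 22 members above background on all 4 arrays, a choice made after seeing the data, it was 0.0088. Of the 13 named members, none changed sign under any setting.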

Other observations

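Genes beside the cluster were taken from the RefSeq order, with up to 8 protein-coding genes on each side. Of 8 before it, all were on the array and 0 were called by limma, 1 of them at P below 0.05. *Itga7*, a laminin-binding integrin subunit, had a log2 difference of -0.38 (FDR = 0.271), and *Olfr9*, the receptor gene next to the run, 0.32 (FDR = 0.609). Inside the run lies *Olfr247*, a receptor gene outside the number range, whose mean level was 193 at the younger age and 142 at the older (-0.44, FDR = 0.252). Of 6 genes after the run, 4 were on the array, all were lower and 0 were called, with 0 at P below 0.05, and none of the 4 was above background on all 4 arrays.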
